A study of Rattus norvegicus with 2 samples.

Results

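The TNF superfamily of signalling proteins, with its receptors and TRAF adaptors, was followed in rat bone mesenchymal stem cells (BMSCs) after icariin treatment. Members were the genes whose symbol on the array or current symbol begins with Tnfsf, Tnfrsf or Traf plus a digit, together with Tnf, Lta, Ltb, Fas, Faslg, Cd40, Cd40lg and Ngfr. Tnfsf11, Tnfrsf11a and Tnfrsf11b, the RANKL system of osteoclasts, were left out. The rule found 46 of 24210 genes, 35 by the symbol on the array and 11 by the current symbol only, and 50 sequences represented them. They comprised 15 ligands, 20 receptors, 6 TRAF adaptors and 5 genes that share a symbol prefix but are interacting proteins or carry an outdated name. Traf5 and Tnfrsf13b were not analysed here.

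The icariin group was a BMSC culture given icariin, a flavonol glycoside of Epimedium that the study uses as an osteogenic compound. Its control was a BMSC culture given the solvent DMSO. According to the methods, the cells were flushed from the femurs and tibiae of young Sprague-Dawley rats, kept by their adherence to plastic, used at an early passage and harvested for RNA after a day of treatment. The labels call the animals female while the methods call them male, no marker sort is described, and whether an array held cells of several animals is not given. With a single array for icariin and a single array for DMSO there are no replicates, so differences between them carry no error and no test.

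Ligands of this superfamily are mostly membrane proteins that act as trimers and can be cut from the cell surface. Receptors with a death domain, such as TNFR1 and Fas, can recruit FADD and caspase-8, whereas receptors without it bind TRAF proteins, which connect them to NF-kB and MAP kinase signalling. In bone, TNF is known to restrain osteoblast differentiation and to promote osteoclast formation, and stromal cells of the marrow respond to several of these ligands.

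Intensities are normalized values on a linear scale and depend on the probes, so they were compared between arrays and never between genes. Olfactory and vomeronasal receptor genes served as a silent class that BMSCs are taken not to use. Their 95th percentile, here called the detection level, was 168 on the icariin array and 148 on the DMSO array, and the 99th percentile was 264 and 214. Probes of random sequence read 78.4 with icariin and 73.8 with DMSO. Where the dimmer array did not exceed its detection level, the ratio is written as "at least", with every value under 168 raised to 168, which is a convention and not a certain bound. Stromal markers were present, as the label says: all 18 marrow stromal markers exceeded the detection level on at least 1 array, with Col1a1 at 39096 with icariin and 33820 with DMSO. Of 19 macrophage markers, 17 exceeded that level with icariin and 9 with DMSO, compared with 10691 and 11667 of all 24210 genes. These markers are described further below.

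As a family, the members did not shift in one direction. Of the 46 members, 24 read higher and 22 read lower on the icariin array, and the median log2 difference was 0.02, compared with -0.02 over all genes. A difference of 2-fold or more upwards was found for 5 members (10.9%), against 6.51% of all genes, and downwards for 3 members (6.52%), against 7.01% of all genes, which makes 17.4% of members and 13.5% of all genes in either direction. Many members were too dim to follow, as were many genes in general. Above the detection level were 26 of the 46 on at least 1 array and 19 on both. Of all 24210 genes, 13064 were above it on at least 1 array and 9294 on both. Of the 26, 3 passed 2-fold upwards and 3 downwards (23.1% together), where the background was 7.94% upwards, 10.5% downwards and 18.4% together among genes passing the same filter. Of the 19, only Tnfrsf22 was at least 2-fold higher and only Tnf at least 2-fold lower, against 2.97% and 4.43% of genes above the level on both arrays (10.5% of these members and 7.4% of these genes in either direction). Each of these shares rests on few members, so the description turns on single genes.

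**Figure D1:**
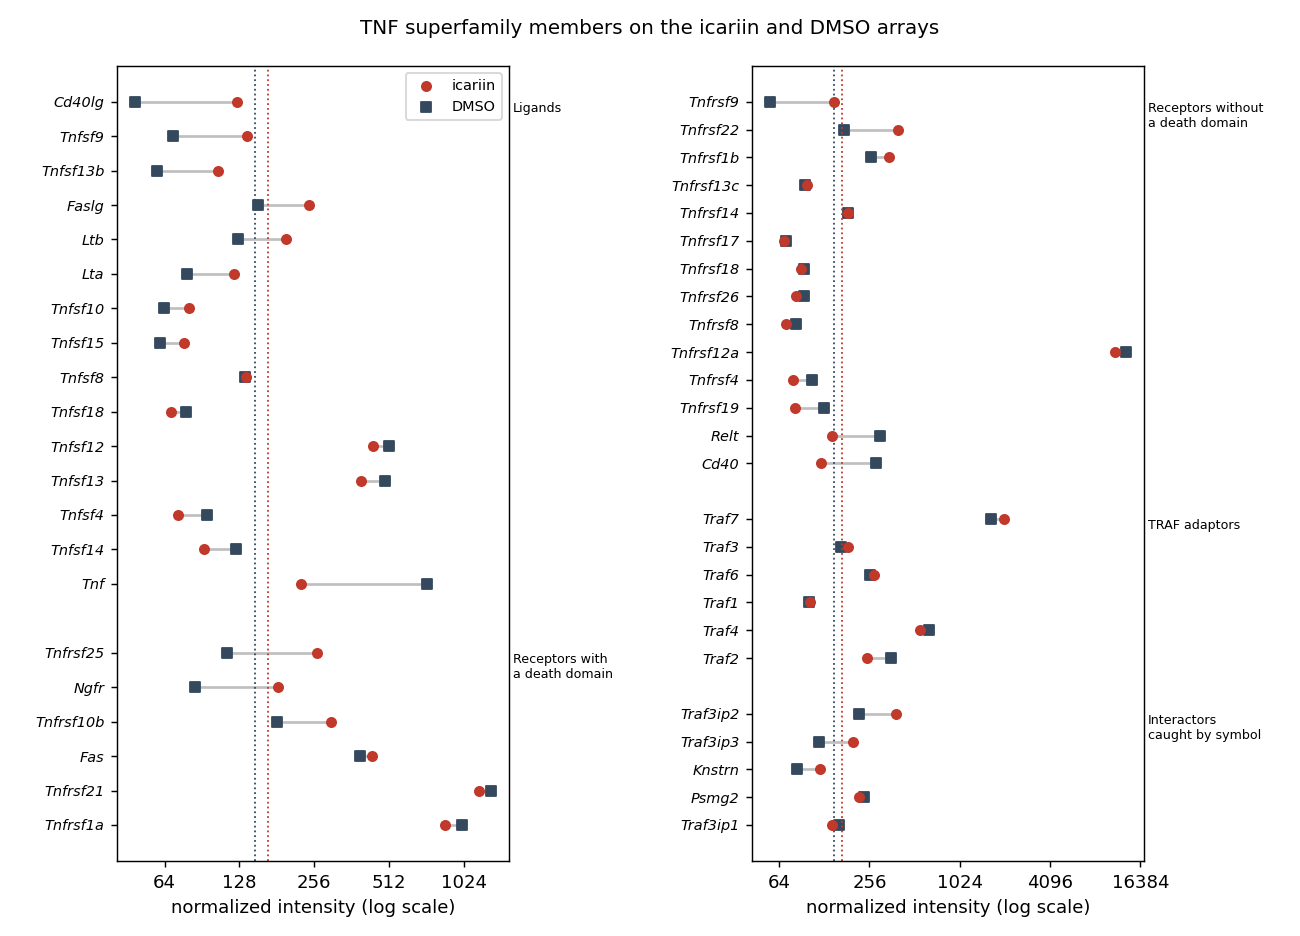
Normalized intensity (log axis) of each of the 46 members on the icariin array (circles) and the DMSO array (squares), grouped by role; dotted lines mark the detection levels of 168 for icariin and 148 for DMSO. Tnf has the widest gap among members with both points above the lines, 226 with icariin and 731 with DMSO.

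Tnf, the founding ligand and a main inflammatory cytokine, showed the largest difference of any member. It read 226 on the icariin array and 731 on the DMSO array, a log2 difference of -1.69, or 3.24-fold lower with icariin. It lay above the detection level on both arrays, although 226 falls under the 99th percentile of the silent class (264). Only 1 sequence of 5 probes represented Tnf, so its difference could not be compared between sequences. With values raised to that percentile, Tnf was still 2.77-fold lower with icariin. In these bulk samples, fewer Tnf-producing cells and less Tnf RNA per cell cannot be told apart.

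The genes beside Tnf on chromosome 20 were dim. Lta and Ltb, which encode the lymphotoxins, border Tnf with no other protein-coding gene between them in the GRCr8 annotation. Lta read 122 with icariin and 79.1 with DMSO, below the detection level on both arrays, so no fold or direction is given. Ltb read 197 with icariin and 127 with DMSO, which is at least 1.18-fold higher and above the detection level with icariin only. The promoters of all 3 genes are shown because Tnf had the largest difference of any member and these are its nearest relatives on the chromosome. Each stretch runs from 250 bases before to 50 bases after the annotated start (RefSeq, GRCr8), with matches to the TATA motif (TATAAA) and the kappa B consensus in capitals.
Tnf, chr20:3626435-3626734, plus strand: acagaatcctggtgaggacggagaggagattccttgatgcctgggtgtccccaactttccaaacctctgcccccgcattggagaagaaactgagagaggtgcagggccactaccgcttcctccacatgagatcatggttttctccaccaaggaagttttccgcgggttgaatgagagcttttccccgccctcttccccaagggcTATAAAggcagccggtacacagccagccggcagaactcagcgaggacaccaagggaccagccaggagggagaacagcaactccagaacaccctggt
Lta, chr20:3623277-3623576, plus strand: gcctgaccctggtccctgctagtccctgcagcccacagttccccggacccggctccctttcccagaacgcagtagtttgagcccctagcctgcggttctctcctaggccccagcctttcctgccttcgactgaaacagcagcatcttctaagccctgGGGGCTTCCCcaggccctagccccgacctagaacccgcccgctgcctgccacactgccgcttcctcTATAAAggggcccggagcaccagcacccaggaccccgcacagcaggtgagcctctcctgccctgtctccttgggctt
Ltb, chr20:3634005-3634304, minus strand: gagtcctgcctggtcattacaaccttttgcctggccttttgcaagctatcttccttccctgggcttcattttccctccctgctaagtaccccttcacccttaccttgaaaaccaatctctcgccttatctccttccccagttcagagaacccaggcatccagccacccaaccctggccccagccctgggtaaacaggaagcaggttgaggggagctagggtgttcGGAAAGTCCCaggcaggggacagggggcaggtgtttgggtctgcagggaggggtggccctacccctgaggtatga

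In these windows the TATA motif began 46 bases before the start of Tnf and 27 bases before that of Lta. The kappa B consensus began 93 bases before the start of Lta and 25 bases before that of Ltb, and its letters were not found in the Tnf window. Both strands were searched, and the AP-1 motif (TGANTCA) was searched as well and was in none of the 3 windows. Among 36 members with a promoter in the table, 7 held the TATA motif, 6 the kappa B consensus and 5 the AP-1 motif, compared with 14.2%, 4.18% and 7.33% of all 33469 promoters. Such matches describe letters and are neither a binding site nor a cause.

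Of the remaining ligands, most were dim and none of the detected ones differed 2-fold. Tnfsf12 (TWEAK), a ligand that acts on mesenchymal cells, read 441 with icariin and 511 with DMSO. Tnfsf13 (APRIL), a survival factor of plasma cells whose gene lies beside Tnfsf12, read 394 with icariin and 495 with DMSO. Both were above the detection level on each array, with log2 differences of -0.21 and -0.33. Faslg, the ligand that triggers the death receptor Fas, read 245 with icariin and 153 with DMSO, a ratio of 1.61, and its DMSO value was barely above the detection level of 148. The other 10 ligands did not exceed the detection level on either array, with values of 68.2 to 137 for icariin and 48.6 to 135 for DMSO. They were Lta, Cd40lg, Tnfsf4, Tnfsf8, Tnfsf9, Tnfsf10, Tnfsf13b, Tnfsf14, Tnfsf15 and Tnfsf18, which act mainly on lymphocytes or, as Tnfsf10 (TRAIL), on death receptors. At this brightness a change in them was not detectable.

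Receptors with a death domain were all detected on at least 1 array, and those with firm signals were nearly level. Tnfrsf1a, the broadly expressed TNF receptor that signals death or NF-kB, read 861 with icariin and 1005 with DMSO (log2 difference -0.22). Tnfrsf21 (DR6), known from neurons and T cells, read 1178 with icariin and 1322 with DMSO (-0.17). Fas read 439.9 with icariin and 390.3 with DMSO (0.17). The main receptor of TNF therefore differed by a ratio of 1.17 while its ligand differed by 3.24.

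The remaining death domain receptors read higher with icariin, from dim DMSO values. Tnfrsf25 (DR3), a receptor of T cells, read 263 with icariin and 114 with DMSO, at least 1.57-fold higher. Ngfr, the p75 neurotrophin receptor, which is also used as a surface marker of marrow stromal cells, read 182 with icariin and 84.8 with DMSO, at least 1.09-fold higher. Both icariin values lay under the 99th percentile of the silent class. Tnfrsf10b (DR5), the TRAIL receptor, was represented by 2 sequences that disagreed. The first read 422 with icariin and 170.1 with DMSO, a ratio of 2.48, and the second 211 with icariin and 193 with DMSO, a ratio of 1.09. Their mean gave a log2 difference of 0.72, so whether Tnfrsf10b passes 2-fold depends on the sequence.

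Among the receptors without a death domain, Tnfrsf12a, Tnfrsf1b and Tnfrsf14 were detected on both arrays and differed less than 2-fold. Tnfrsf12a (Fn14), the growth factor-inducible receptor of TWEAK in mesenchymal cells, read 11038 with icariin and 13171 with DMSO (log2 difference -0.25). Tnfrsf1b (TNFR2), the TNF receptor typical of blood and endothelial cells, read 346 with icariin and 261 with DMSO (0.41). Tnfrsf14, the herpesvirus entry mediator, read 184 on both arrays.

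Tnfrsf22, known in the mouse as a decoy receptor for TRAIL, was the only member above the detection level on both arrays that was at least 2-fold higher. It read 396 with icariin and 173 with DMSO, a ratio of 2.29. The DMSO value lies under the 99th percentile of the silent class (214), and with values raised to the higher 99th percentile the log2 difference was 0.58, against 1.19 as measured. Tnfrsf26, its neighbour on chromosome 1 and a related receptor, read 83.3 with icariin and 94.3 with DMSO, below detection. The probes of related receptors can share signal, which the files do not resolve.

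Of the receptors without a death domain, the other detected ones that differed 2-fold were lower with icariin. Cd40, the receptor through which T cells activate B cells and macrophages, read 122 with icariin and 281 with DMSO, at least 1.68-fold lower. Relt, named for its expression in lymphoid tissue, read 144 with icariin and 299 with DMSO, at least 1.78-fold lower. Neither exceeded the detection level on the icariin array. The 8 receptors below detection on both arrays were Tnfrsf4, Tnfrsf8, Tnfrsf9, Tnfrsf13c, Tnfrsf17, Tnfrsf18, Tnfrsf19 and Tnfrsf26, most of which belong to activated T cells or to B cells. They read 68.9 to 149 with icariin and 55.5 to 127 with DMSO. Tnfrsf9 and the ligand Cd40lg made up the rest of the 5 members past 2-fold upwards, and both stayed under the detection level.

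**Figure D2:**
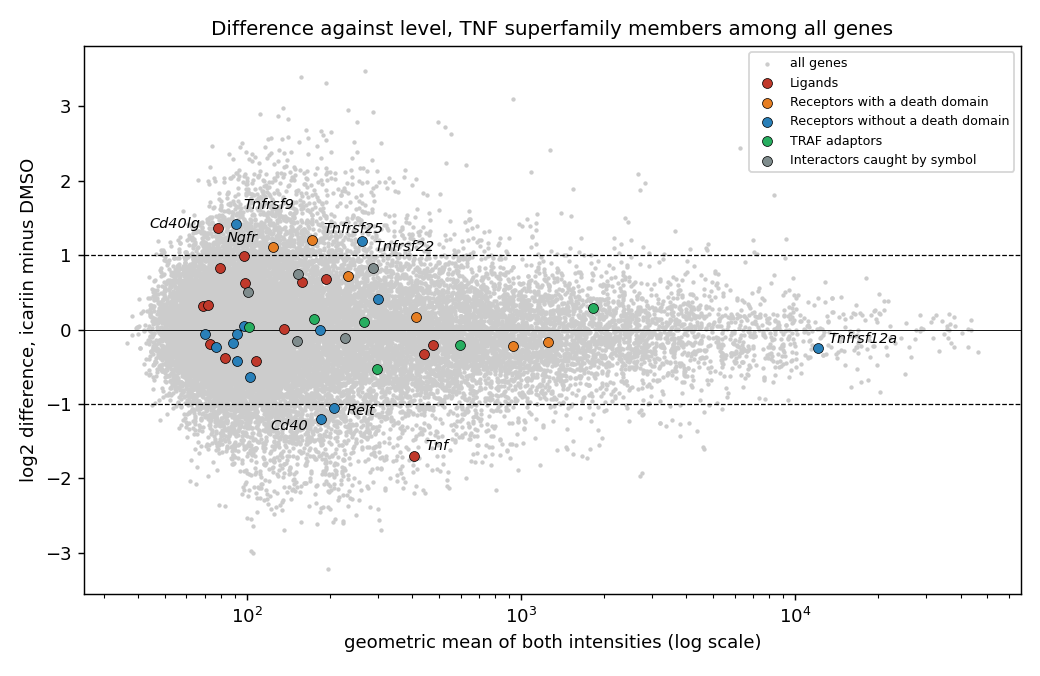
Log2 difference (icariin minus DMSO) of every gene against the geometric mean of its intensities (log axis); grey points are all 24210 genes, coloured points the 46 members by role, dashed lines mark 2-fold. Tnf lies at -1.69 and Tnfrsf12a, at the far right, at -0.25, while most members past 2-fold sit among the dim genes.

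The TRAF adaptors, which carry receptor signals to NF-kB and MAP kinases, did not differ 2-fold, where 13.5% of all genes did. Above the detection level on both arrays were 5 of 6, with log2 differences of -0.54 to 0.29. Traf7, a ubiquitin ligase that acts with the kinase MEKK3, read 2023 with icariin and 1652 with DMSO (0.29). Traf4, known from epithelial cells and cell migration, read 555 with icariin and 642 with DMSO (-0.21). Traf6, the adaptor of CD40 and of Toll-like receptors, read 276 with icariin and 258 with DMSO (0.10). The icariin and DMSO values of these 3 genes were close to each other, with Traf7 the farthest apart at a ratio of 1.22.

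Traf2 and Traf3 were each represented by 2 sequences. For Traf2, the ubiquitin ligase scaffold of TNF receptors, a sequence read 1307 with icariin and 1725 with DMSO (log2 difference -0.40), while the other lay near or below the random probes at 46.3 with icariin and 73.9 with DMSO. The gene mean, 246 with icariin and 357 with DMSO (-0.54), therefore rests partly on a dim sequence. For Traf3, which restrains non-canonical NF-kB signalling, the sequences read 228 and 148 with icariin against 270 and 102 with DMSO, and differed in sign (-0.24 and 0.54). The dimmer Traf3 sequence (148 and 102) was below detection on both arrays, so the positive sign comes from undetected signal. Traf1, an NF-kB-induced adaptor of lymphocytes, was below detection on both arrays, at 103 with icariin and 100.5 with DMSO.

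Of the genes that share only the prefix, none differed 2-fold, where 13.5% of all genes did. Traf3ip2 (Act1), the adaptor of the interleukin-17 receptor, read 385 with icariin and 216 with DMSO, a ratio of 1.78. Traf3ip3 read 198 with icariin and 118 with DMSO, at least 1.18-fold higher. Traf3ip1, a protein of cilia, read 144 with icariin and 160 with DMSO. Psmg2, listed on the array as Tnfsf5ip1, is a proteasome assembly chaperone and read 219 with icariin and 236 with DMSO. Knstrn, listed as Traf4af1, is a kinetochore protein whose gene mean was below detection on both arrays and whose sequences disagreed (-0.55 and 1.56).

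Ligands and receptors were set side by side for 17 known pairs with both partners measured. In 4 of them both partners exceeded the detection level on both arrays: Tnf with Tnfrsf1a, Tnf with Tnfrsf1b, Faslg with Fas, and Tnfsf12 with Tnfrsf12a. In the TWEAK pair both partners were slightly lower with icariin, by ratios of 1.16 for the ligand and 1.19 for Tnfrsf12a. In the TNF pairs the ligand was lower by 1.69 on the log2 scale, whereas the receptors had differences of -0.22 for Tnfrsf1a and 0.41 for Tnfrsf1b. In 6 pairs the receptor alone was detected on at least 1 array, in 1 the ligand alone (Tnfsf13 with Tnfrsf17), and in 6 neither partner.

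Downstream of the receptors, genes of the proximal complex were largely level. Of 26 measured genes, 2 passed 2-fold upwards and none downwards, and the median was 0.17, compared with -0.02 over all genes. Over all genes, 6.51% passed 2-fold upwards and 7.01% downwards. Fadd, the adaptor that links death receptors to caspase-8, read 250.3 with icariin and 86.7 with DMSO, at least 1.49-fold higher. Tbk1, a kinase of the innate response, read 125 with icariin and 239 with DMSO, at least 1.43-fold lower. Tnfaip3 (A20), the NF-kB-induced inhibitor of TNF signalling, read 1357 with icariin and 1426 with DMSO. Birc3 (cIAP2), the ubiquitin ligase recruited by TRAF2, read 410.2 with icariin and 346 with DMSO. Tnfaip3 and Birc3, with log2 differences of -0.07 and 0.24, were named after their values were seen, and other known responders to TNF were lower, such as Nfkbia (-0.64, 462 with icariin and 723 with DMSO) and Ier3 (-0.92, 1603 with icariin and 3028 with DMSO). The other gene past 2-fold was Xiap, which was below detection on both arrays.

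NF-kB subunits, inhibitors and kinases went both ways. Of 12 measured genes, 1 passed 2-fold upwards and none downwards, and the median was -0.09, or -0.39 over the 10 genes above the detection level. The shares over all genes were 6.51% upwards and 7.01% downwards. Ikbkb, the catalytic kinase of the canonical pathway, read 925 with icariin and 456 with DMSO, a ratio of 2.03. Nfkb2, the subunit of the non-canonical pathway, read 603 with icariin and 1120.4 with DMSO (log2 difference -0.89). Bcl3, an atypical inhibitor protein, had a difference of -0.84, with 181 for icariin and 325 for DMSO. Rela, the main transactivating subunit, read 765 with icariin and 1269 with DMSO (-0.73). Nfkb2, Bcl3 and Rela were each lower by less than 2-fold.

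The listed genes that TNF is known to induce through NF-kB went both ways. Known responders placed in other lists are not counted here. Among these were Nfkbia (log2 difference -0.64), Tnfaip3 (-0.07), Birc3 (0.24) and Vcam1 (at least 2.39-fold lower). Of the 27 listed genes, 1 passed 2-fold upwards and 1 downwards, against 6.51% and 7.01% of all genes. Higher readings were found for 15 and lower ones for 12, and the median was 0.14. Gadd45b, a stress-inducible gene, read 1230.3 with icariin and 2695 with DMSO, a log2 difference of -1.13. Il6 read 235 with icariin and 102 with DMSO, at least 1.40-fold higher. Cxcl2, a neutrophil chemokine, read 1099 with icariin and 567 with DMSO (0.96), while Il1b read 484 with icariin and 924 with DMSO (-0.93). Whether the lower Tnf had a part in these differences was not tested.

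Regulators of TNF release and of Tnf mRNA were all detected on both arrays, and none of 14 differed 2-fold (median -0.15). Among all genes above the detection level on both arrays, 7.4% differed 2-fold in either direction. Adam17, the protease that sheds TNF from the membrane, read 1282 with icariin and 1292 with DMSO. Elavl1 (HuR), which stabilises AU-rich mRNAs, read 264 with icariin and 502 with DMSO (log2 difference -0.92). Zfp36 (tristetraprolin), which destabilises Tnf mRNA, read 625 with icariin and 720.3 with DMSO (-0.20). Adam17 and Zfp36 were named after their values were seen because of their direct link to TNF.

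**Figure D3:**
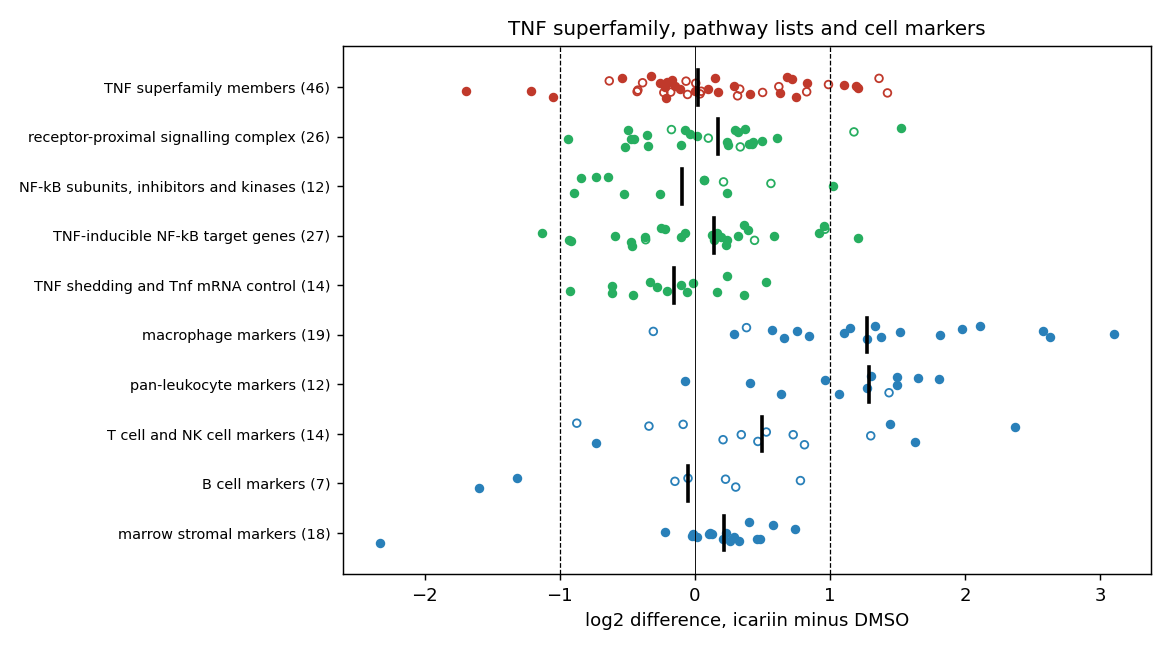
Log2 difference (icariin minus DMSO) of single genes in the TNF superfamily, 4 pathway lists and 5 cell marker lists; filled points exceeded the detection level on at least 1 array, open points on neither, black bars are medians and dashed lines mark 2-fold. The members centre on 0.02, and the macrophage and pan-leukocyte markers on 1.27 and 1.29.

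Markers of blood cells, which also express many members of this superfamily, moved between the arrays. Over all genes, 6.51% passed 2-fold upwards and 7.01% downwards. Of 19 macrophage markers, 12 passed 2-fold upwards and none downwards (median 1.27), and their summed intensity was 20488 with icariin and 6773 with DMSO. Lyz2 read 2727 with icariin and 318 with DMSO, and Cd163 and Fcgr1a were below detection on both arrays. Of 12 pan-leukocyte markers, 8 passed 2-fold upwards and none downwards (median 1.29), with sums of 5166 with icariin and 2393 with DMSO. Such sums are dominated by the brightest probes and do not measure cell content. Of the 8 pan-leukocyte markers, 7 were detected with icariin, and Vav1 was below detection on both arrays. Among markers above the detection level on both arrays, 6 of 9 macrophage and 3 of 7 pan-leukocyte markers passed 2-fold upwards. The share among all genes above it on both arrays was 2.97%. Tnf, Cd40 and Tnfrsf1b are known from macrophages as well. With icariin, Tnf and Cd40 read lower and Tnfrsf1b read higher (log2 difference 0.41). The part of these cells in any member's difference was not tested.

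T cell and NK cell markers were mostly undetected, with 10 of 14 below detection on both arrays, as were 11146 of all 24210 genes. Past 2-fold upwards were 4 of the 14, 1 of them undetected. The shares of all genes past 2-fold were 6.51% upwards and 7.01% downwards. Their summed intensity was 2418 with icariin and 1373 with DMSO, and Cd3e, Cd3g, Cd3d and Lck, which define T cells, were below detection. The 3 detected markers that passed 2-fold upwards were Cd247, a signalling chain of T and NK cell receptors (733 with icariin, 237 with DMSO), Cd28 (at least 1.84-fold higher, 309 with icariin and 59.7 with DMSO) and Cd2 (at least 1.56-fold higher, 262 with icariin and 96.4 with DMSO). The remaining detected marker, Zap70, went the other way and is named for that reason. It read 126 with icariin and 209 with DMSO, at least 1.25-fold lower. Of 7 B cell markers, none exceeded the detection level with icariin and 5 were below detection on both arrays. Their sums were 603 with icariin and 757 with DMSO, and the icariin sum holds undetected signal only. Of 18 stromal markers, none passed 2-fold upwards and 1 downwards (median 0.22), with sums of 211023 with icariin and 186935 with DMSO. The lower marker was Vcam1, an adhesion molecule that TNF is known to induce, at 79.6 with icariin and 401 with DMSO, at least 2.39-fold lower. Whether these cells contributed to the lymphocyte-linked members was not tested.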

How the data were processed

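RNA of 1 icariin-treated and 1 DMSO-treated BMSC culture was hybridised to NimbleGen rat arrays with Cy3. The deposited intensity values were made by the authors with quantile normalization and RMA in NimbleScan, version not given in the sources used here. They are linear, and normalization of this kind would hide a change common to all transcripts. A deposited count of probes per sequence, 5 for each member, was read as well. The 26419 sequences were named through RefSeq GRCr8 by gene identifier (20681) or accession (31), or kept the file symbol (5707). The log2 values of sequences were averaged per gene (Python 3.11.15, pandas 2.3.3), and the log2 difference is icariin minus DMSO. A gene was called at 2-fold, since the methods name fold change filtering. The gene table returned known folds put on simulated data without noise, which checks the arithmetic only. No error or p-value exists with 1 array per condition, and this number limits the precision. The detection level came from 1412 olfactory and vomeronasal receptor genes.

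Every member above the detection level on at least 1 array could be named, with up to 4 genes of each pathway list and up to 3 of each marker list by size of difference above that level. Genes outside this rule are identified as such or define their lineage. The members, lists and alternatives were chosen with earlier results of these data known. Alternatives tried were the series value table (20045 sequences), a loess with a span of 0.3 (statsmodels 0.14.6), centring, the highest sequence, 64 added, raised floors, other filters and folds, sequences in place of genes, and other member rules.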

Additional observations from a re-analysis of the deposited data

How the results depend on the processing

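The count of 5 members at least 2-fold higher was 6 with the series value table and with centring, 7 with the highest sequence or with sequences in place of genes, and 5 with loess, with older symbols and without interacting proteins. It was 3 among members detected on at least 1 array, 1 among those detected on both, 1 with values raised to the floor and 0 with 64 added. The count of 3 members lower was 1 among those detected on both arrays, 1 with values raised to the floor and 1 with 64 added, namely Tnf each time. With values raised to the 99th percentile of the silent class, an alternative chosen after seeing the data, 0 were higher and 1 was lower. At 1.5-fold, 13 were higher and 4 lower, and at 3-fold 0 were higher and 1 lower. With values raised to the floor, 362 of all 24210 genes were at least 2-fold higher and 601 lower. For 64 added, the 99th percentile and the other folds, the share of all genes is not given here. Those counts of members therefore have no background and show no direction of the family. The median of the members lay between -0.0013 and 0.10 in every alternative. Of the pathway lists, the proximal complex had 1 gene past 2-fold upwards with 64 added and 0 with the floor, the NF-kB list 0 with 64 added, and the targets 2 with loess and 0 with 64 added or the floor. Tnfrsf22 had a log2 difference of 0.96 with 64 added and 0.58 with the raised 99th percentile, so its 2-fold call is lost there. Cd40, Relt, Tnfrsf25 and Ngfr lost 2-fold with 64 added and with either floor. With the highest sequence, Tnfrsf10b reached 1.31 and Traf3 was at -0.24, against 0.15 for its mean. Members above the level numbered 18 on at least 1 array and 11 on both when the 99th percentile set it. No paired analysis was possible because each condition has 1 array. Dim signals limit the family as well, since 20 of 46 members were below detection on both arrays. This is not particular to the family, as 11146 of all 24210 genes were below it too.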

Other observations

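Genes named after TNF but outside the superfamily were read by symbol prefix, a choice made after the lists were examined. Of 8 TNF alpha-induced protein genes (Tnfaip), 2 passed 2-fold upwards with icariin and none downwards, against 6.51% and 7.01% of all genes. Tnfaip8l2 (TIPE2), a regulator of immune cells, read 521 with icariin and 197 with DMSO, a ratio of 2.64. Tnfaip8l1 read 215 with icariin and 68.6 with DMSO, at least 1.28-fold higher. Tnfaip2 read 1138 with icariin and 885 with DMSO, whereas Tnfaip6 (TSG-6), an anti-inflammatory matrix protein of stromal cells, read 249 with icariin and 376 with DMSO. None of 9 C1q and TNF related genes differed 2-fold, among them C1qtnf1 (2150.5 with icariin, 2195 with DMSO) and C1qtnf5 (2601 with icariin, 2642 with DMSO).

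Superfamily genes whose names fall outside the symbol rule were Ltbr, Cd27, Cd70, Eda, Edar and Eda2r, and none of the 6 differed 2-fold. Over all genes, 13.5% differed 2-fold in either direction, so none among so few genes is no result about them. Ltbr, the lymphotoxin beta receptor of stromal cells, read 972 with icariin and 582 with DMSO, a log2 difference of 0.74, while its ligand gene Ltb was at least 1.18-fold higher. Edar read 263 with icariin and 199 with DMSO, and the other 4 were below detection on both arrays.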
